A study of Mus musculus with 16 samples.

Results

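Genes with more RNA in Nrp1 high than in Nrp1 low monocytes are described here: 150 genes of the 25562 in the count table. They were chosen by their measured RNA levels, as counts scaled to a common library total (CPM). A gene needed a mean of at least 10 CPM over the 6 RNA libraries and a lowest Nrp1 high library above its highest Nrp1 low library. The 150 with the largest log2 ratio of group means, with 1 CPM added to each mean, were taken. Symbols that start with Nrp, Plxn, Klf, Ugt1a, Rpl, Rps or mt-, predicted models and symbols ending in Rik were left out. Of 8659 genes at 10 CPM or more, 1287 had groups that did not overlap in this direction (14.9%), and 1221 of these had an eligible symbol. The RNA difference between the groups is therefore what the genes were selected on, and it is given as a description with no test.

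The cells came from the spleens of wild type mice aged 7 days, C57BL/6J for RNA and C57BL/6 for ATAC-seq as the labels spell them. Monocytes were sorted into a fraction with much and a fraction with little Nrp1 (neuropilin-1, which binds semaphorins and vascular growth factors together with other receptors), with no treatment named, and the labels give the cell type of all samples as myeloid derived suppressor cells. RNA-seq covered 3 Nrp1 high and 3 Nrp1 low libraries, and ATAC-seq, in which a transposase cuts open chromatin, covered 5 and 5. The labels mention pooled RNA and name no separate animals behind the libraries, so the spread between them may be technical. Nrp1 low replicate 1 stood apart from the other RNA libraries on these genes, and values with and without it are given.

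The spleen of newborn mice still makes blood cells, and its monocytes arise from dividing progenitors. As they mature and move into tissue they rebuild the actin cytoskeleton, attach to matrix through integrins, and turn over membrane by endocytosis. Chromatin remodelling complexes and histone-modifying enzymes set which of their genes can be read.

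The 6 RNA libraries held 23395363 to 35127433 counts, with 18725 to 20231 genes detected. The monocyte markers Ly6c2 (1666 to 2332 CPM in Nrp1 low, 1955 to 2489 in Nrp1 high) and Csf1r (338 to 481 and 483 to 537) were present in all 6 libraries. Csf1r is on the macrophage list used here. The 15 classical monocyte markers summed to 9736 to 10643 CPM in Nrp1 low and 9716 to 11381 in Nrp1 high. The 17 neutrophil markers summed to 52579 to 74391 CPM in Nrp1 low and 10198 to 12518 in Nrp1 high. Of the 17, 11 were called lower by edgeR's quasi-likelihood test at an adjusted p under 0.05, where 105 of all 15541 genes tested were. Mitochondrially encoded genes took 0.784, 1.57 and 1.11% of counts in Nrp1 low replicates 1, 2 and 3, and 3.01, 1.29 and 2.37% in Nrp1 high. In bulk RNA, fewer cells of a type and less RNA per cell cannot be told apart.

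The 150 genes together took 0.182, 0.836 and 0.530% of all counts in Nrp1 low replicates 1, 2 and 3, against 1.41, 1.00 and 1.42% in Nrp1 high. Their median level was 5.74, 22.9 and 15.9 CPM in Nrp1 low, against 41.4, 29.1 and 44.2 CPM in Nrp1 high. The libraries thus stood in an order that most of the genes shared. Nrp1 low replicate 1 was the lowest low library for 147 genes. Nrp1 low replicate 2 was the highest low library for 140, and Nrp1 high replicate 2 was the lowest high library for 136. The full order low 1, low 3, low 2, high 2, high 1, high 3 was found for 66 genes, and the same order with high 1 and high 3 exchanged for 59. Among all 8659 genes at 10 CPM or more, the same 3 libraries held these places in 42.7, 48.6 and 42.6% of genes, against 98.0, 93.3 and 90.7% of the 150. Among the 1071 eligible genes that did not overlap, were higher and ranked after the 150, the shares were 67.2, 72.6 and 56.9%. The rule ranked genes by a ratio of these same values, so this order is a description.

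**Figure D1:**
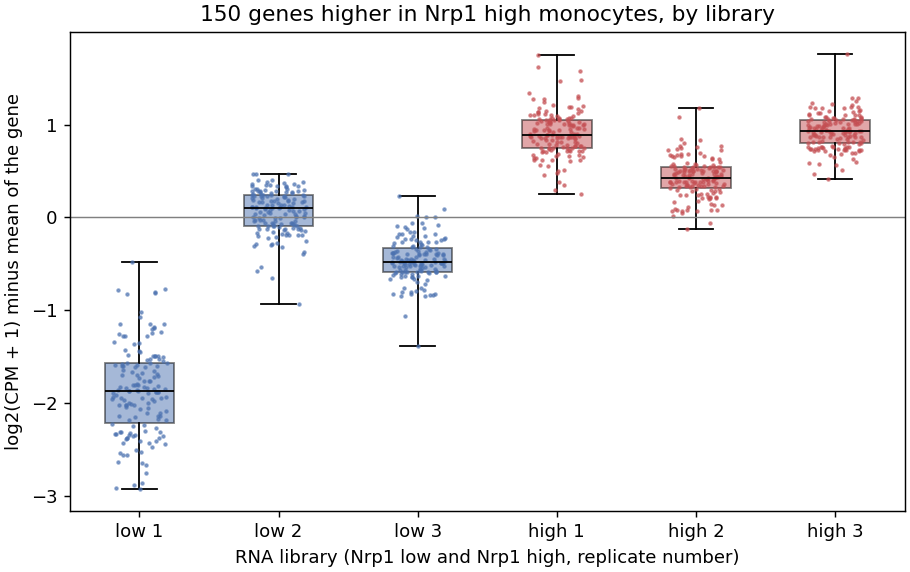
For each of the 6 RNA libraries (x axis), each point is 1 of the 150 genes at its log2(CPM + 1) minus the gene's own mean over the libraries (y axis), with boxes for the interquartile range and median and whiskers to the lowest and highest gene. The medians are -1.87, 0.10 and -0.48 in Nrp1 low and 0.89, 0.43 and 0.93 in Nrp1 high, so Nrp1 low replicate 1 lies farthest from the rest, and Nrp1 low replicate 2 is the low library nearest to the Nrp1 high libraries.

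The size of the difference depended on single libraries. The ratio of group means ran from 2.24 to 6.93 with a median of 2.51, and 18 genes exceeded 3. Without Nrp1 low replicate 1 the median ratio was 1.91 and 54 genes exceeded 2. Without Nrp1 low replicate 2 it was 3.53, and leaving out any of the other 4 libraries gave 2.38 to 2.77. Between replicate 2 of Nrp1 high and replicate 2 of Nrp1 low alone, the median ratio was 1.25 and 5 genes exceeded 2. The lowest Nrp1 high value lay 1.24 times (median) above the highest Nrp1 low value, more than 1.5 times above it for 24 genes and less than 1.1 times for 35.

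edgeR's quasi-likelihood test over 15541 genes, which all 150 entered, called 0 of the 150 higher at an adjusted p under 0.05, where 0.00643% of all genes tested (1 gene) were called. At an unadjusted p under 0.05 it took 96 of them, against 4.5% of all genes. DESeq2 called 24, against 0.495% of all genes, and limma-voom called 0, against 0.00643%. Since the rule used the same libraries, nothing is read from these counts. The median fitted log2 difference was 1.16 (0.98 to 2.64), against 0.01 over all genes tested. Scaling by library totals in place of TMM moved these medians to 1.33 and 0.20.

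The gene with the largest ratio was Inf2 (ENSMUSG00000037679), a formin that builds and severs actin filaments. Its level was 1.25, 12.3 and 7.23 CPM in Nrp1 low replicates 1, 2 and 3 and 56.9, 29.7 and 57.2 CPM in Nrp1 high, a ratio of means of 6.93 (47.9 ± 15.8 and 6.92 ± 5.51 CPM, SD, n = 3). Its lowest high library stood 2.42 times above its highest low library, the widest separation of the 150. It was also the only member that edgeR called once Nrp1 low replicate 1 was left out (log2 difference 2.15), on the contrast that the rule used. In that fit 5 of all 16469 genes tested were called higher. Ccnk, cyclin K, whose kinase partners act on elongating RNA polymerase, followed with a ratio of 4.13. Its levels of 1.62, 11.8 and 8.72 CPM in Nrp1 low, against 41.7, 16.9 and 33.1 CPM in Nrp1 high, left a smaller gap, 1.42 times, between low replicate 2 and high replicate 2.

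The other 18 of the 20 genes ranked first by the rule had ratios of means of 2.90 to 3.76. Slc24a5, a cation exchanger known from pigment cells, had 4.47, 9.70 and 3.67 CPM in Nrp1 low, against 24.6, 15.8 and 26.7 CPM in Nrp1 high. It was 1 of only 2 members whose lowest library was Nrp1 low replicate 3. Ttc37, a subunit of the complex that feeds RNA to the exosome, was one of the 2 members highest in Nrp1 high replicate 2, at 2.22, 9.19 and 5.01 CPM against 16.6, 23.1 and 16.2 CPM.

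**Figure D2:**
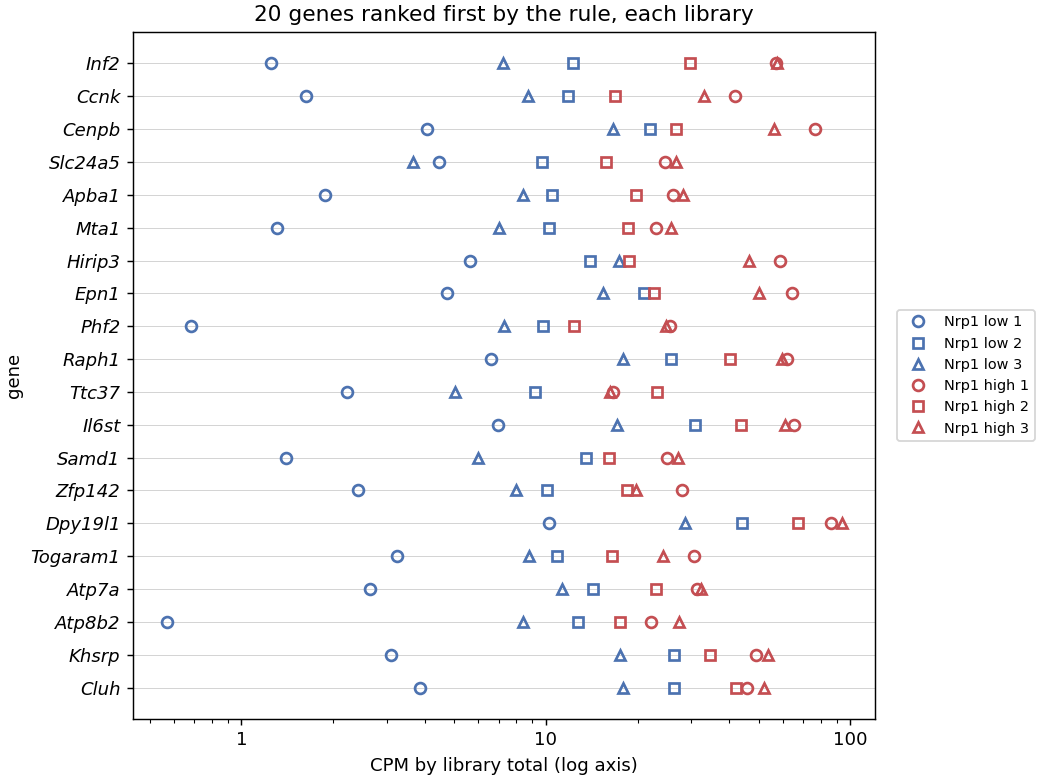
The 20 genes ranked first by the rule's log2 ratio (y axis), each library shown as 1 point at its CPM on a log axis (x axis), blue for Nrp1 low and red for Nrp1 high, with the symbol giving the replicate number. All blue points lie left of all red points in each row, as the rule requires, and Nrp1 low replicate 1 is the leftmost point in 19 of the 20 rows.

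The 22 genes of DNA replication, repair and mitosis had a median ratio of 2.48, and in all 22 the lowest library was Nrp1 low replicate 1, the highest low library replicate 2 and the lowest high library replicate 2. Their median levels were 8.87, 35.03 and 22.3 CPM in Nrp1 low, against 67.9, 44.2 and 59.6 CPM in Nrp1 high. Cenpb, which binds centromeric repeats, led them with 4.07, 22.0 and 16.6 CPM against 76.5, 26.7 and 56.2 CPM. Mki67, the proliferation antigen that coats mitotic chromosomes, stood at 108, 636 and 340 CPM in Nrp1 low, against 895, 643 and 916 CPM in Nrp1 high. Its replicates 2 thus differed by 1.01 times. Top2a, the topoisomerase that untangles replicated DNA, stood at 153, 527 and 308 CPM against 834, 608 and 829 CPM.

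Other genes of this role were the repair factors Brca1 (3.10, 13.8 and 9.495 CPM against 23.4, 21.8 and 26.7 CPM) and Blm (5.27, 22.5 and 14.6 CPM against 39.9, 31.2 and 40.5 CPM). Cep85, a centrosome protein, had 72.5, 125 and 103 CPM against 338, 164 and 259 CPM. Clspn, a checkpoint adaptor, was among the genes with the tighter groups, at 19.6, 32.7 and 30.5 CPM against 69.2, 50.8 and 65.4 CPM. Of a list of 20 cell cycle genes, edgeR called 0 in either direction at an adjusted p under 0.05, DESeq2 0 and limma-voom 0. In edgeR's fit 8 lay above and 12 below a log2 difference of 0, with a median of -0.09. The 1 that was higher at an unadjusted p under 0.05 was Top2a, which the rule chose on the same libraries, where 4.5% of all genes tested were. Mki67 and Top2a were the 2 members on that list. The list's summed level was 4710 to 5525 CPM in Nrp1 low, against 5860.5 to 6433 CPM in Nrp1 high, and those sums include the 2 members. Without Mki67 and Top2a the sums were 5265, 4302 and 4061 CPM against 4131, 5182 and 4541 CPM, and the groups overlapped.

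Chromatin and transcription was the largest role, with 34 genes and a median ratio of 2.58. Mta1, a subunit of a deacetylase complex, had 1.31, 10.3 and 7.01 CPM in Nrp1 low, against 22.9, 18.6 and 25.7 CPM in Nrp1 high. Phf2, a histone demethylase, had 0.683, 9.74 and 7.31 CPM against 25.6, 12.3 and 24.8 CPM, so its low replicate 1 lay more than 10 times below the other low libraries. Hirip3, which binds histones, had 5.61, 13.9 and 17.4 CPM against 58.8, 18.8 and 46.5 CPM, and Samd1, a protein of unmethylated CpG-rich promoters, 1.395, 13.5 and 5.97 CPM against 25.01, 16.1 and 27.2 CPM. For both, high replicate 2 lay within 1.2 times of the highest low library.

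Arid1a, the DNA-binding subunit of a SWI/SNF remodeller, had 13.7, 114 and 86.8 CPM in Nrp1 low, against 234, 125 and 216 CPM in Nrp1 high. Zinc-finger factors included Zfp142 (2.42, 10.04 and 7.97 CPM against 28.1, 18.5 and 19.8 CPM), Zfp704 and Zfp729a, whose ratios were 3.25, 2.43 and 2.60. Zkscan17 had the widest gap of the role (1.99 times), at 7.83, 8.85 and 10.1 CPM in Nrp1 low, against 27.6, 20.01 and 23.4 CPM in Nrp1 high, and its low libraries did not set replicate 1 far below the others. Zfhx3, a homeobox and zinc-finger factor, had 1.71, 10.1 and 5.53 CPM against 18.1, 13.7 and 21.4 CPM.

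RNA processing and turnover held 11 genes with a median ratio of 2.47. Khsrp, which directs decay of AU-rich transcripts, had 3.10, 26.3 and 17.5 CPM in Nrp1 low, against 48.8, 34.7 and 53.8 CPM in Nrp1 high. Cluh, which binds transcripts of mitochondrial proteins, had 3.84, 26.4 and 17.9 CPM against 45.8, 42.0 and 52.0 CPM. Neat1, the noncoding RNA on which paraspeckles form, had 28.6, 87.8 and 84.7 CPM against 211, 126 and 169 CPM. It was the only member of a list of 20 nuclear and noncoding RNAs. Of the 16 tested, edgeR called 0, DESeq2 0 and limma-voom 0, and 10 lay above 0. The 1 that was higher at an unadjusted p under 0.05 in edgeR's fit was Neat1 itself, where 4.5% of all genes tested were. The rule chose Neat1 on the same libraries, so nothing is read from that count.

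The 25 genes of cytoskeleton, adhesion and matrix had a median ratio of 2.51. Fn1, fibronectin, a matrix protein that monocytes also make, had 262, 2016 and 1100 CPM in Nrp1 low, against 3025, 2257 and 3208 CPM in Nrp1 high (2830 ± 505 against 1126 ± 877 CPM, SD, n = 3). It was the only member among the 15 classical monocyte markers. Their sums overlapped between the groups with Fn1 included and were lower in Nrp1 high without it. The sums without Fn1 held Chil3, at 2547, 1832 and 2043 CPM in Nrp1 low, against 214, 248 and 216 CPM in Nrp1 high. Itga1, the alpha subunit of a collagen-binding integrin, had 12.6, 33.9 and 23.8 CPM against 70.8, 53.2 and 68.9 CPM. Raph1, which recruits actin-elongating proteins to the leading edge, had 6.604, 25.7 and 17.9 CPM against 62.1, 40.1 and 59.6 CPM.

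Dpysl2, a microtubule regulator, had 14.1, 39.8 and 23.5 CPM in Nrp1 low, against 78.9, 59.4 and 82.6 CPM in Nrp1 high. Togaram1, a protein of ciliary microtubules, had a ratio of 3.11. The large scaffold Ahnak stood at 68.4, 273 and 195 CPM against 433, 329 and 498 CPM, and the linker of intermediate filaments Plec at 34.1, 109 and 81.4 CPM against 162, 155 and 187 CPM. Fmnl1, a formin of blood cells, and Dock10, an exchange factor for small GTPases, had ratios of 2.27 each, and Fmnl1 had 190.3 CPM in low replicate 2 and 194 CPM in high replicate 2.

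Receptors and signalling proteins numbered 15, with a median ratio of 2.44. Il6st, the shared signalling receptor of interleukin-6 family cytokines, had 6.95, 30.9 and 17.1 CPM in Nrp1 low, against 65.1, 43.8 and 61.0 CPM in Nrp1 high. Met, the receptor tyrosine kinase for hepatocyte growth factor, had 3.93, 21.4 and 12.9 CPM against 32.8, 34.3 and 41.2 CPM, and high replicate 2 was not its lowest high library. Piezo1, a mechanically gated channel, had 7.43, 66.8 and 38.4 CPM against 95.9, 85.7 and 123 CPM. Btla, an inhibitory immune receptor, had 10.7, 26.2 and 17.6 CPM against 42.8, 38.9 and 45.7 CPM, with high libraries that lay close together.

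Membrane traffic, transport and nuclear pores held 21 genes with a median ratio of 2.63. Apba1, an adaptor that binds the amyloid precursor protein, had 1.88, 10.4 and 8.38 CPM in Nrp1 low, against 26.2, 19.8 and 28.1 CPM in Nrp1 high. Epn1, an endocytic adaptor, had 4.73, 20.9 and 15.4 CPM against 64.4, 22.6 and 50.1 CPM. Of the P-type ATPases, the copper pump Atp7a had a ratio of 3.06, and the phospholipid flippases Atp8b2 and Atp10a had 3.09 and 2.66. Atp8b2 had the lowest single value of the 150, 0.569 CPM in low replicate 1, against 12.7 and 8.42 CPM in the other low libraries and 22.1, 17.5 and 27.3 CPM in Nrp1 high. Nup210, a nuclear pore membrane protein, had 18.2, 110.2 and 75.3 CPM against 189, 139 and 228 CPM. Eea1, a tether of early endosomes, had 16.4, 34.7 and 26.7 CPM against 60.1, 56.1 and 66.8 CPM.

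The 13 enzymes of glycan, lipid and protein modification had a median ratio of 2.43. Dpy19l1, a mannosyltransferase, had 10.2, 44.1 and 28.6 CPM in Nrp1 low, against 86.1, 67.4 and 93.6 CPM in Nrp1 high. Sulf2, which removes sulfate from heparan sulfate outside the cell, had 17.0, 34.5 and 27.0 CPM against 66.7, 57.2 and 66.8 CPM. Of the 9 remaining genes, Rcbtb1 had the lowest edgeR p of all members. Its levels were 8.88, 12.5 and 8.42 CPM against 25.7, 26.2 and 24.4 CPM, and its log2 difference was 1.18 (SE 0.24).

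**Figure D3:**
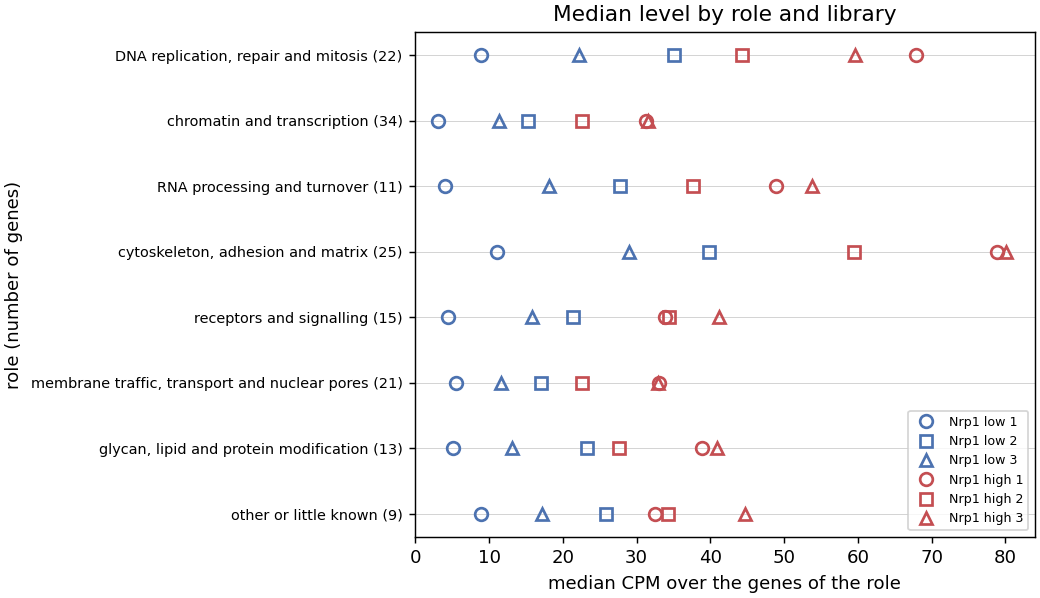
Median CPM (x axis) over the genes of each of 8 roles (y axis, number of genes in brackets), 1 point per library, blue for Nrp1 low and red for Nrp1 high. In all 8 roles Nrp1 low replicate 1 is the leftmost point and Nrp1 low replicate 2 the rightmost blue one.

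Members just inside the limit included Nemp2, Qser1, Clspn and Emsy, with log2 ratios by the rule of 1.14 each. The genes just outside were Myo9a, Arhgef11, Topbp1, Lrrc75a and Itpr3, with 1.13 each. The limit therefore fell within a continuous run of values.

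The members were long genes, a property that the rule did not use. From start to end in RefSeq's GRCm38.p6 annotation they spanned a median of 51.4 kb (interquartile range 25.1 to 95.3 kb), against 21.7 kb over 8536 genes at 10 CPM or more. 33 of the 150 (22.0%) spanned over 100 kb, against 9.75%. The longest were Zfhx3 (682 kb), the adhesion scaffold Lpp (599 kb) and the endosomal exchange factor Dennd1a (488 kb), and the shortest were Cenpb (2.78 kb) and Samd1 (2.90 kb). By quartiles of gene span from short to long, 8, 20, 44 and 78 members were found. Genes with groups that did not overlap and were lower in Nrp1 high spanned a median of 15.9 kb, and the 1265 with a known span that did not overlap and were higher spanned 30.4 kb, with 12.9% over 100 kb.

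The same gradient ran through all expressed genes and followed libraries as well as groups. The median edgeR log2 difference was -0.24, -0.17, 0.01 and 0.34 in the 4 quartiles, and 10.4, 12.4, 16.3 and 20.2% of genes had groups that did not overlap and were higher in Nrp1 high. Genes of the longest quartile took 8.63, 13.5 and 9.82% of the counts in Nrp1 low replicates 1, 2 and 3 and 14.2, 12.9 and 15.1% in Nrp1 high. Nrp1 low replicate 2 thus lay above Nrp1 high replicate 2, so the groups overlapped on this measure. When the rule was rerun without 1 library, the median span of the 150 genes it then chose was 35.7 to 58.6 kb, lowest without Nrp1 high replicate 2. What part gene length or RNA quality had in the choice of members was not tested.

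**Figure D4:**
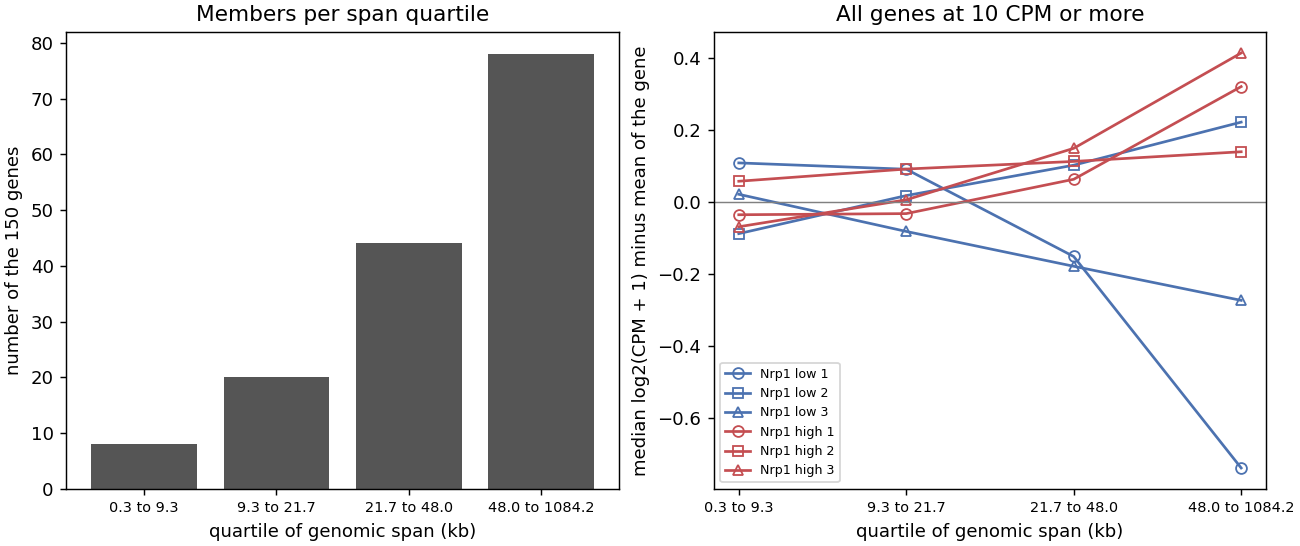
Genes at 10 CPM or more in 4 quartiles of gene span (x axes, kb), with the number of members in each (left panel) and the median deviation of all genes of the quartile from their own mean log2(CPM + 1) in each library (right panel, 1 line per library). The number of members goes from 8 in the shortest to 78 in the longest quartile, and in the longest quartile the lines lie at -0.74, 0.22 and -0.27 in Nrp1 low and at 0.32, 0.14 and 0.42 in Nrp1 high.

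Open chromatin was measured in separate libraries and was not used by the rule. In the authors' deposited table of 40796 regions, 135 members had a region within 3000 bases of a transcript start, called a promoter region here. At an FDR under 0.05 in the authors' deposited table, 4 of the 135 had one more open in Nrp1 high (2.96%, against 2.18% of 7506 genes at 10 CPM or more). A promoter region was less open in Nrp1 high for 14 (10.4%, against 4.61%) in the authors' deposited table, with Zfhx3 in both counts. The direction, high over low, rests on the name of the deposited comparison, and no column of the authors' deposited table states it. Turned round, the counts would be 14 more open and 4 less open. The difference between members and other genes was not tested.

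Counting every region the authors' deposited table assigns to a gene, 5 of 141 members had one more open (3.55%, against 4.07% of expressed genes) and 22 one less open (15.6%, against 8.5%). Of their 419 regions, 5 were more open, where 2.56% of all regions in the authors' deposited table were, and 36 were less open, where 4.99% were. Among all expressed genes, 4.78, 5.17, 7.07 and 16.1% had any region less open in that deposited table, by quartile of gene span from short to long. The longest quartile held 78 of the members. The median log2 fold of the region nearest to the start was -0.04 over the members and -0.01 over expressed genes, and 58 of the 135 lay above 0 (43.0%, against 47.5%), from the authors' deposited table. Across the 135 members, the log2 ratio of RNA and the log2 fold of the nearest promoter region had a Spearman's rho of 0.01, and across 7506 expressed genes of -0.05. These are correlations across genes, which are not independent replicates.

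Most of the less open promoters lay in long genes. Of 73 members with a promoter region in the longest quartile, 13 had one less open in the authors' deposited table, against 7.53% of all 1993 expressed genes of that quartile. In the 3 shorter quartiles, from short to long, it was 0 of 6, 0 of 15 and 1 of 41 members. All expressed genes showed a rise in the authors' deposited table too, from 3.00% in the shortest quartile through 3.58 and 3.98%. By role, 6 of 23 genes of cytoskeleton, adhesion and matrix with a promoter region had one less open in that deposited table, 3 of 20 of membrane traffic and transport, and 2 of 15 receptors and signalling genes, where 4.61% of expressed genes had one. In that deposited table it was also 1 each of 31 chromatin and transcription genes, of 13 modifying enzymes and of 6 genes of other function. More open promoter regions in that deposited table were those of 2 of the 31 chromatin and transcription genes, 1 of 9 RNA processing genes and 1 of the 6, where 2.18% of expressed genes had one. Of the 18 genes of replication, repair and mitosis, 0 were called in either direction in that deposited table, and with 18 genes 0 is near these shares.

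The 3 members whose promoter region nearest to the start was more open in the authors' deposited table were Ccnk (log2 fold 0.26), Hnrnpul1 (0.27), an RNA-binding protein, and Ankhd1 (0.31), an ankyrin-repeat scaffold. These 3 folds were small beside those of the less open ones. Zfhx3 also had a more open promoter region, with a larger fold (2.06) in the authors' deposited table. Where regions lay equally near to a start, the first by position was taken. For Zfhx3 the region taken had a fold of -0.39 in that deposited table and was not called. In the authors' deposited table the nearest promoter region was less open in Sulf2 (-0.89), Tns3 and Ahnak (-0.75 each), Apba1 and Stxbp6 (-0.71 each), Fn1 (-0.69), Met (-0.64), Atp10a (-0.45), Itga1 and Crybg3 (-0.42 each). Tns3 links integrins to actin, and Stxbp6 binds proteins of membrane fusion. Another promoter region was less open in Plec (-0.84), Btla (-0.53), Coro2a (-0.43) and Zfhx3 (-0.55) in the authors' deposited table.

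Zfhx3 had regions in both directions. In the authors' deposited table, the region at chr8:108637931-108638330, at the start of one transcript, had the largest fold of all members' regions, 2.06 (FDR 3.6e-05). A region at the start of another transcript, chr8:108714486-108714885, was less open (-0.55), as were 3 intronic regions (-1.10, -1.06 and -0.51) of the deposited table. Dock10 was likewise mixed, with 1 region in intron 4 more open (1.01) and 4 others less open (-1.45, -1.0, -0.86 and -0.55) in the authors' deposited table. Trio, an exchange factor for small GTPases, had the lowest fold, -1.47, in its intron 1 in that deposited table. Regions outside promoters were also less open in Stxbp6 and Btla (-1.18 each), the condensin subunit Ncapg2 (-1.17), the corepressor subunit Tbl1xr1 (-0.84), the bicarbonate transporter Slc4a7 (-0.84), the ETS repressor Etv3 (-0.83), the calcium release channel Itpr1 (-0.78) and Nup210 (-0.74) in the authors' deposited table.

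**Figure D5:**
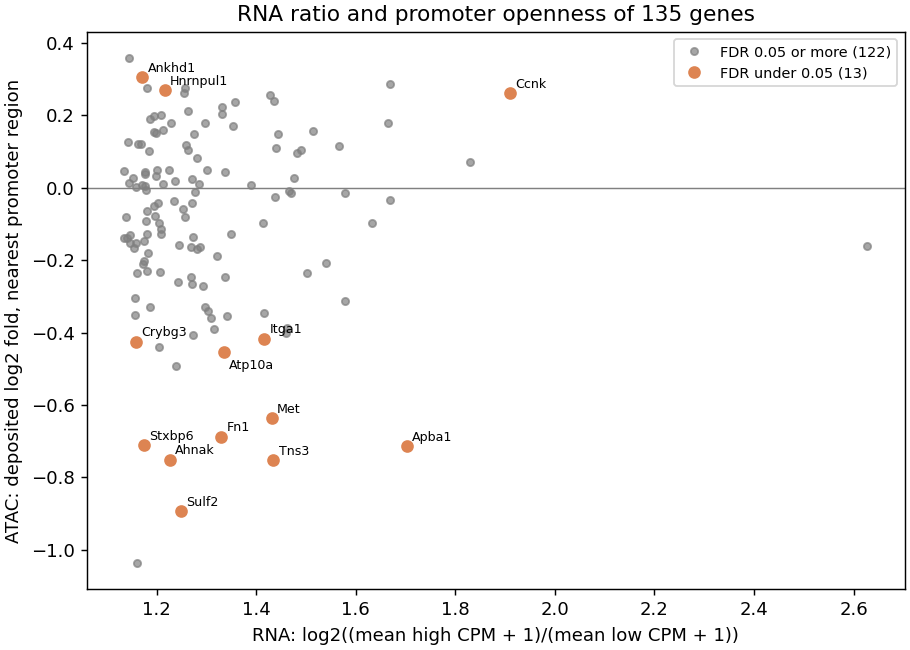
Log2 fold of accessibility of the promoter region nearest to the start from the authors' deposited table (y axis) against the log2 ratio of RNA by the rule (x axis), 1 point for each of 135 members. Orange points have an FDR under 0.05, 3 of them above 0 and 10 below, and no slope is visible across the points.

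Of the members' 148 RefSeq promoter windows, 10 windows of 9 genes overlapped a called region, 2 of them a more open and 8 a less open one. The same overlap was not counted for windows of other expressed genes, so nothing is read from the split of these 10 windows. The letters of 7 are shown, chosen after their values were seen as examples of both directions: Ccnk and Hnrnpul1 for more open and Zfhx3, Met, Itga1, Sulf2 and Stxbp6 for less open regions. Windows of Atp10a and Ahnak and a second one of Sulf2 are not printed. Each window runs from 250 bases before to 50 after a RefSeq transcript start on GRCm38.p6, 5′ to 3′ on the gene's strand. Capitals mark matches, on either strand, to any of 14 short motifs. The windows are chr12:108179488-108179787 on the plus strand (Ccnk), chr7:25754710-25755009 on the minus strand (Hnrnpul1), chr8:108714394-108714693 on the plus strand (Zfhx3), chr6:17463707-17464006 on the plus strand (Met), chr13:115101915-115102214 on the minus strand (Itga1), chr2:166155634-166155933 on the minus strand (Sulf2) and chr12:45074434-45074733 on the minus strand (Stxbp6).
Ccnk: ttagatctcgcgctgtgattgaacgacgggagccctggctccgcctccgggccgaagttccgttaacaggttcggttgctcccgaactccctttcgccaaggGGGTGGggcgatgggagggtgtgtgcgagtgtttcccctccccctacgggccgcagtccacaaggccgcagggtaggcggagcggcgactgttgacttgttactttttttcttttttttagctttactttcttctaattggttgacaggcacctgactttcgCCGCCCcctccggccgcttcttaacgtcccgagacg
Hnrnpul1: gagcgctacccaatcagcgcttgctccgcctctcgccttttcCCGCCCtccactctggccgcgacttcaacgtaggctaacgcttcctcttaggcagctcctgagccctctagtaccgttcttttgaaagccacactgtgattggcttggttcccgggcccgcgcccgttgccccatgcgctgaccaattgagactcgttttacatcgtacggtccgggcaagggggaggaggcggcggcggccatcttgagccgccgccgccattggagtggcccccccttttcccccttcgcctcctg
Zfhx3: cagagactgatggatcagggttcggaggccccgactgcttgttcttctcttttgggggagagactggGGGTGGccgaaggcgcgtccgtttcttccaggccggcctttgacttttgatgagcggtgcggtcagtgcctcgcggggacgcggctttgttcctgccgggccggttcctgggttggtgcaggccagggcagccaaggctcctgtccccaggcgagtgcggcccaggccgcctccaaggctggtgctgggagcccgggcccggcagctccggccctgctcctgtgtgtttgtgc
Met: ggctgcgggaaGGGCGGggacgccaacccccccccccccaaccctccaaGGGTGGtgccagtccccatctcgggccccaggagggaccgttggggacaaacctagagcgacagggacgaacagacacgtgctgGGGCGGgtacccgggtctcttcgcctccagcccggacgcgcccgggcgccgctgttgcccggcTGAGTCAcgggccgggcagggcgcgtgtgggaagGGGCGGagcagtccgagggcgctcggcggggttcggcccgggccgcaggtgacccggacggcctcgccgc
Itga1: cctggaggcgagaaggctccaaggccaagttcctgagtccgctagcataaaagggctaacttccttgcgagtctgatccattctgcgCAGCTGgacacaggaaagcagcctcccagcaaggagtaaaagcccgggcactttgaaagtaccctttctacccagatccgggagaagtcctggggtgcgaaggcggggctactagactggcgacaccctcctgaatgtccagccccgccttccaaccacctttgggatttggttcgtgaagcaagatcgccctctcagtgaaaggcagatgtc
Sulf2: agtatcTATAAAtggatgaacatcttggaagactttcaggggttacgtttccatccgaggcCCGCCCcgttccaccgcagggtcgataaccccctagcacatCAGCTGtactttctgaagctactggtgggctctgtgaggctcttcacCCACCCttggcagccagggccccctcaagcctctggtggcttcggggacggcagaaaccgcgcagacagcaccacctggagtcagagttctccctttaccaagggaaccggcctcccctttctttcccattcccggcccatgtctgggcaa
Stxbp6: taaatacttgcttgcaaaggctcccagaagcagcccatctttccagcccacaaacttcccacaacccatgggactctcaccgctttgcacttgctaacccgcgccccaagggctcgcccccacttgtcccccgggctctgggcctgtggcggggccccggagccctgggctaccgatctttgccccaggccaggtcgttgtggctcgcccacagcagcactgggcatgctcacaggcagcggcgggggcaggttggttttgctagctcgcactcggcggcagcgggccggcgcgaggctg

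In these windows the GC box GGGCGG was matched in Ccnk, Hnrnpul1 and Sulf2 once each and in Met at 3 places. The KLF and SP box CCACCC was matched in Ccnk, Zfhx3, Met and Sulf2, the E-box CAGCTG in Itga1 and Sulf2, the AP-1 motif TGANTCA in Met, and the TATA box TATAAA in Sulf2. The last lay at bases 7 to 12 of the window, far before the start. The Stxbp6 window held 0 matches. A match is a description of the letters and says nothing of binding.

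RefSeq windows matched 121 of the 150 members (80.7%), with 148 windows. Their median GC content was 66.0%, against 60.7% in 8706 windows of expressed genes and 52.7% in all 32851 windows. The ratio of observed to expected CpG was 0.84, 0.79 and 0.38 in the same 3 sets. GGGCGG was found in 77.0% of the members' windows, 63.6% of those of expressed genes and 35.7% of all. CCACCC was found in 32.4, 35.6 and 31.5%, and may overlap a GC box. The PU.1 motif GAGGAAGT was found in 6.08, 3.56 and 3.20%, the C/EBP motif TTGCNNAA in 3.38, 8.66 and 10.8%, and the ETS core CCGGAAG in 14.9, 20.8 and 8.86%. The IRF motif GAAANNGAA was found in 11.5, 7.56 and 8.56%, the RUNX motif TGTGGT in 8.11, 12.9 and 16.8%, CAGCTG in 17.6, 13.8 and 16.3%, TGANTCA in 4.73, 4.88 and 7.81%, and TATAAA in 6.08, 6.94 and 13.6%. These shares were not tested, and C/EBP matches rest on 5 of the 148 windows and PU.1 matches on 9.

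Markers of other cells did not hold members. Of 15 marker lists for blood, vessel and stromal cells, the only member was Fn1, on the classical monocyte list. The sums of that list were lower in Nrp1 high without Fn1, and Chil3 was a large part of them in Nrp1 low. Chil3 had 2547, 1832 and 2043 CPM in Nrp1 low, against 214, 248 and 216 CPM in Nrp1 high. In edgeR's fit 7 of the 15 classical markers lay above 0 and 8 below, with a median log2 difference of -0.02. Platelet markers summed to 55.4 to 64.0 CPM in Nrp1 low and 13.5 to 17.1 in Nrp1 high, and T cell markers to 87.8 to 96.3 and 75.4 to 100.01 CPM. Sums that did not overlap and were lower in Nrp1 high were found for 6 of the 15 lists: neutrophils and platelets, as given, macrophages (1841 to 1904 CPM, then 1589 to 1634), non-classical monocytes (1610 to 1740, then 1182 to 1413), NK and innate lymphoid cells (177 to 208, then 67.2 to 103) and basophils and mast cells (94.1 to 144, then 50.9 to 73.4). A single gene was a large part of some of these sums. Pglyrp1 on the non-classical list had 643, 533 and 752 CPM in Nrp1 low, against 122, 151 and 101 CPM in Nrp1 high. Nkg7 on the NK list had 167, 142 and 172 against 50.8, 64.6 and 43.4 CPM. Apoe on the macrophage list had 825, 625 and 790 against 488, 547 and 443 CPM. In edgeR's fit 3 of 14 non-classical, 4 of 12 NK and 6 of 19 macrophage markers lay above 0. Plasmacytoid dendritic cell markers alone had sums that did not overlap and were higher in Nrp1 high (512 to 588 CPM, then 633 to 762). Irf8 was a large part of them, at 418, 340 and 340 CPM in Nrp1 low, against 435, 551 and 462 CPM in Nrp1 high. Of these 12 markers, edgeR, DESeq2 and limma-voom each called 0 at an adjusted p under 0.05. In edgeR's fit 10 lay above 0 and 2 below, with a median log2 difference of 0.20. B cell markers summed to 821 to 1017 and 795 to 1007 CPM, so the T and B cell sums overlapped between the groups. The part of these other cells in the members' CPM was not tested.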

How the data were processed

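RNA-seq and ATAC-seq files of the 2 sorted fractions were used as deposited. A kit for very small amounts of RNA was used for the RNA libraries, per the labels' protocols. The submitters' processing notes name HISAT2 and StringTie and the build GRCm38. The authors deposited estimated counts per gene, which are whole numbers; the scale of a StringTie count is uncertain, and strand is not stated, so overlapping and antisense genes cannot be told apart. For ATAC-seq the authors deposited each region's log2 fold, p-value and FDR, with no value per library used here; the depth of those libraries is unknown. The direction of the fold, high over low, rests on the table's name. CPM were computed from column totals. edgeR 4.0.16 (filterByExpr, TMM, robust quasi-likelihood F test, Benjamini-Hochberg adjusted p), limma 3.58.1 (voom) and DESeq2 1.42.0 were run in R 4.3.3 on all genes. The edgeR fit alone was also run on simulated counts. Intervals and spreads cover these libraries only.

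The genes and the 25 lists were chosen with earlier results of these data known, and roles were assigned after values were seen. Genes named were the 20 ranked first by the rule, the 10 highest means, the 10 lowest edgeR p-values, 5 genes on each side of the limit (1 of them is not reported here), members with called ATAC regions, list members and symbol families; other members, such as Brca1, Blm, Piezo1, Lpp and Dennd1a, are named as examples chosen after their values were seen. Alternatives covered scaling, filters, tools, thresholds, distance and each RNA library left out. Sequences and gene spans come from RefSeq on GRCm38.p6, matched by symbol or synonym.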

Additional observations from a re-analysis of the deposited data

How the results depend on the processing

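The number of members that edgeR called was 0 under the other scalings, filters and thresholds run, 0 to 1 when 1 RNA library was left out, and 24 with DESeq2. With the replicate number as a block it was 0, and same-numbered libraries did not deviate together (correlations -0.22, -0.21 and 0.02), so the numbers were not taken as pairs. Rerunning the rule kept 96 of the 150 at a minimum of 20 CPM, 107 to 144 under the other minimum, pseudocounts, TMM scaling or medians, and 56 to 128 when a library was left out (56 without Nrp1 low replicate 2, 63 without Nrp1 high replicate 2). The ratio between replicates 2 alone was 1.25. At an FDR under 0.01 in the authors' deposited table, 1 member had a promoter region more open (0.741%, against 0.520% of expressed genes) and 6 one less open (4.44%, against 1.21%). For any region, 1 was more open (0.709%, against 1.36%) and 12 less open (8.51%, against 2.39%). At an FDR under 0.1 in the authors' deposited table, 6 had a promoter region more open (4.44%, against 4.69%) and 21 one less open (15.6%, against 7.98%), and 10 had any region more open (7.09%, against 7.63%) and 35 less open (24.8%, against 13.8%). The alternatives for less open promoters, for ratios without a library and for gene span were added after seeing the data. The cause of these changes was not tested. Depth limits single genes: the members' low libraries hold down to 20 counts.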
